A study of Mus musculus with 45 samples.

Results

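The cyclin-dependent kinase (CDK) inhibitors Cdkn1a, Cdkn1b, Cdkn2a, Cdkn2b, Cdkn2c, Cdkn2d and Cdkn3 were followed in regenerating mouse liver. The 7 genes were chosen by name and matched by Ensembl ID to the deposited gene counts, where all 7 were found among 19966 genes. Of the 7, 5 passed the filter on low counts and were tested among 14090 genes, whereas Cdkn2a and Cdkn2b did not pass it.

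Cells enter and cross the division cycle when cyclins bind and switch on their kinases. The Cip/Kip inhibitors, to which p21 (Cdkn1a) and p27 (Cdkn1b) belong, bind whole cyclin-kinase complexes, and p21 is the textbook target of the tumour suppressor p53. The Ink4 inhibitors, p16 and its relatives p15 (Cdkn2b), p18 (Cdkn2c) and p19 (Cdkn2d), bind CDK4 and CDK6 and keep cyclin D away from them. Cdkn3 encodes a phosphatase that takes an activating phosphate off CDK2. After partial hepatectomy the quiescent hepatocytes of the remaining lobes enter the cycle nearly together, and p21 is known to limit their progress.

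Poly(A) RNA of whole liver was sequenced in 45 libraries from C57Bl/6 mice aged 8 to 12 weeks on a normal diet, either wild type (WT) or Uhrf1hepKO (KO). By its name the KO lacks Uhrf1, a protein needed to keep DNA methylation through replication, in hepatocytes, while other liver cells would keep it. The promoter driving the deletion is not given in the sources used here, and no agent other than surgery is named. Partial hepatectomy was done in the morning. Liver was taken from mice at baseline or 24, 30, 40, 48 or 96 h, 7 days or 4 weeks after the surgery, which gives 16 groups. The baseline columns carry a 40 h tag in their names, and the labels do not say whether baseline and 40 h libraries share mice. Each group held 3 libraries, apart from the WT groups of 30 and 48 h and the KO group of 7 days, which held 2. Whether replicate libraries stem from different mice is not stated in the labels, so p-values measure the spread between these libraries, which may be partly technical.

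Total counts lay between 12851359 and 23133501 per library. All 9 hepatocyte markers present in the count table had counts in every library. Uhrf1 was lower in KO over the 7 conditions other than 96 h (log2 −1.89 ± 0.32 SE, edgeR adjusted p = 0.000261). Taken singly, the difference was called at 40 h (−3.52 ± 0.50, edgeR adjusted p = 0.000314) and at no other of these conditions. At 30 h it was −1.33 ± 0.50 (edgeR adjusted p = 0.261). Uhrf1 also rose in KO, from 0.117 ± 0.124 CPM (SD, n = 3) at baseline to 12.9 ± 3.49 CPM (n = 3) at 30 h. At 96 h its difference was 1.73 ± 0.83 (edgeR adjusted p = 0.165), and there the labels are in doubt. Bglap3, a gene that lay between 0.112 and 1.53 CPM in the 19 WT libraries of other conditions and between 3.18 and 17.4 CPM in the 20 KO libraries, reached 9.38 to 28.4 CPM in all 3 libraries that the labels call WT at 96 h. Rhox5, a germline gene, likewise stood at 2.86 to 9.58 CPM there, against at most 0.59 CPM in the other WT libraries. The libraries labelled KO at 96 h held 8.83 to 29.4 CPM of Bglap3 and 4.14 to 12 CPM of Rhox5. Both genes were thus high in both labelled groups at 96 h. Results at 96 h are therefore given for libraries as labelled, and apart from the others.

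Levels are in CPM (counts relative to library size, scaled by the trimmed mean of M values, TMM) when one gene is compared between samples, and in FPKM (fragments relative to gene length and library size) when different genes are compared. Changes are log2 values with their SE from 1 edgeR quasi-likelihood fit over all libraries. A change is called where the p-value, adjusted by Benjamini-Hochberg across the 14090 genes, is under 0.05.

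Resting liver held Cdkn1b at a similar level in every library, and Cdkn1a at a level that differed widely between libraries. At WT baseline, Cdkn1b had the highest mean FPKM of the 7 genes, 6.60 ± 0.95 (SD, n = 3), followed by Cdkn1a with 4.74 ± 6.91, Cdkn2c with 2.58 ± 1.03 and Cdkn2d with 2.28 ± 0.82. Cdkn3 and Cdkn2b stood at 0.128 ± 0.221 and 0.093 ± 0.083 FPKM, and Cdkn2a was at 0 in all 3 libraries. The libraries of Cdkn1a, Cdkn1b, Cdkn2c and Cdkn2d overlapped in this order at one step or another, since Cdkn1a alone ran from 0.737 to 12.7 FPKM. Its highest baseline library lay above every Cdkn1b library in WT (at most 7.40 FPKM) and also in KO (8.87 against at most 8.22 FPKM).

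During regeneration the order turned over. At 40 h in WT, Cdkn1a led with 80.7 ± 2.04 FPKM (n = 3), ahead of Cdkn2c with 21.4 ± 4.68, Cdkn2d with 12.6 ± 1.35, Cdkn1b with 11.2 ± 0.18 and Cdkn3 with 9.52 ± 2.24. By 48 h in KO, the Cdkn3 libraries held 31.7 to 66.5 FPKM and the Cdkn1a libraries 28.3 to 63.9 FPKM, nearly the same range. Cdkn2a and Cdkn2b stayed below 0.3 FPKM in all group means.

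**Figure D1:**
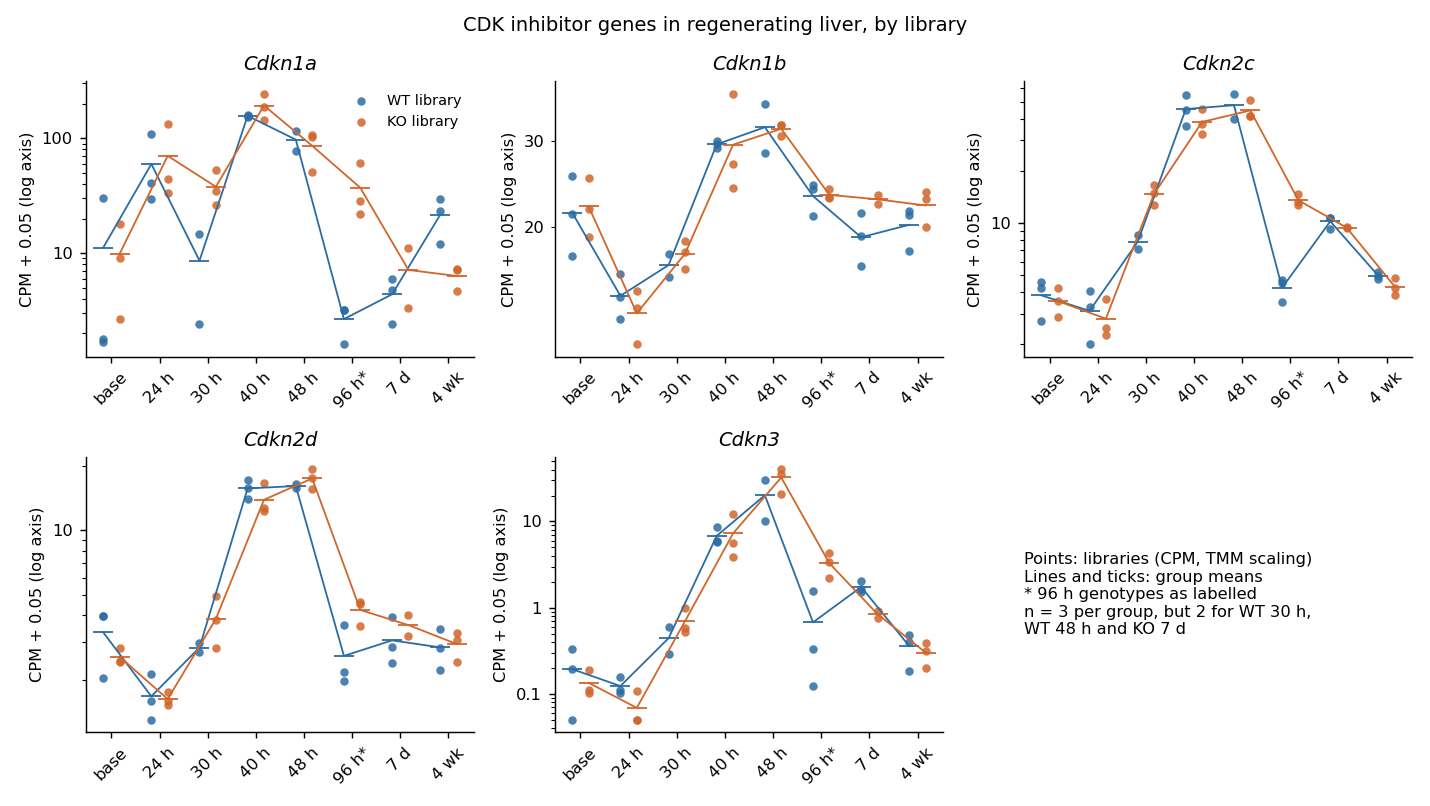
Level of each tested inhibitor in every library, in CPM plus 0.05 on a log axis, for WT and KO at baseline and 7 times after partial hepatectomy; points are libraries, and lines join group means. All 5 genes are highest at 40 or 48 h, Cdkn1a is also high at 24 h, and Cdkn1b varies least.

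Against baseline, all 5 tested inhibitors rose by 40 h in both genotypes and were still raised at 48 h, and by 4 weeks none was called. In WT, edgeR called 3 of 5 at 24 h (1 higher, 2 lower; 22.4% of all genes were called, 10.5% higher and 11.9% lower), 1 higher at 30 h (17.7%, 9.33% higher), 5 higher at 40 h (36.5%, 19.2% higher) and 5 higher at 48 h (31%, 15.6% higher). Later it called 2 higher at 7 days in WT (3.56%, 2.25% higher) and 0 at 4 weeks (1.17%). In KO it called 2 at 24 h (1 higher, 1 lower; 23.7%, 11.5% higher and 12.2% lower), 2 higher at 30 h (33.1%, 17% higher), 5 higher at 40 h (35.6%, 17.9% higher), 5 higher at 48 h (36%, 19% higher), 1 higher at 7 days (5.56%, 3.06% higher) and 0 at 4 weeks (8.57%). The KO count at 30 h depended on the method: DESeq2 called 4 (also Cdkn1a, adjusted p = 0.0386, and Cdkn2d, 0.0456), edgeR with other scaling factors, limma on FPKM and edgeR without the 96 h libraries called 3 each, and edgeR on the compared groups alone called 1. At 4 weeks 0 of the 5 had an unadjusted p under 0.05 in either genotype, and DESeq2 also called 0. The median log2 change of the 5 was 3.58 at 40 h in WT and 3.44 in KO, against −0.0029 and −0.011 over all genes. All comparisons of a genotype share its baseline libraries.

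Cdkn1a (ENSMUSG00000023067; chromosome 17, 29090976 to 29100727, plus strand, GRCm38) was called higher at 24 h already, and its libraries spread widely at baseline and at 24 h. A gene annotated on the opposite strand, AC167363.2, overlaps it, and reads of the pair cannot be told apart if strand was not used in counting. At baseline the WT libraries held 1.75, 1.65 and 29.9 CPM and the KO libraries 2.6, 17.7 and 9.01 CPM. At 24 h they held 41.1, 29.5 and 108 CPM in WT and 33.1, 43.8 and 134 CPM in KO. One WT baseline library thus reached the range of the 24 h libraries, while all KO libraries at 24 h lay above those of KO baseline. Between these KO groups 40% of all genes tested did not overlap (either direction).

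At 30 h the genotypes lay apart. The WT libraries held 14.7 and 2.36 CPM, inside the range of WT baseline, and the KO libraries held 34.5, 52.9 and 26 CPM, all above KO baseline. Over all genes, 27.6% did not overlap between the genotypes at 30 h, and 47% did not between KO at 30 h and KO baseline. Both genotypes were at their highest at 40 h, with 153, 160 and 157 CPM in WT and 145, 188 and 245 CPM in KO. At 48 h WT held 116 and 78.2 CPM and KO 50.4, 106 and 102 CPM. Among the 16 group means KO at 40 h was the highest, 193 ± 50.1 CPM, and WT at 40 h the next, 157 ± 3.83 CPM, with overlapping libraries. Levels were low again at 7 days, with 4.73, 5.9 and 2.36 CPM in WT and 10.9 and 3.25 CPM in KO. At 4 weeks the WT libraries held 29.5, 23 and 12 CPM and the KO libraries 7.02, 4.61 and 7.19 CPM, so that all WT values lay above all KO values, as for 13.9% of all genes tested (in either direction).

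Against baseline, edgeR called Cdkn1a higher at 24 h in WT (log2 2.44 ± 0.78, adjusted p = 0.0226) and in KO (2.83 ± 0.79, 0.00832). It was also called at 40 h (WT 3.83 ± 0.81, KO 4.29 ± 0.83) and at 48 h (WT 3.14 ± 0.84, KO 3.13 ± 0.79). At 30 h the change was −0.41 ± 0.91 in WT (edgeR adjusted p = 0.817) and 1.94 ± 0.77 in KO (0.052), and neither was called by edgeR, whereas DESeq2 (0.0386) and limma on FPKM (0.0261) called the KO change. The size of each WT change rests on WT baseline replicate 3, the library at 29.9 CPM. Without it the WT changes were 5.13 at 24 h, 6.52 at 40 h and 5.83 at 48 h. The WT call at 24 h was lost without WT 24 h replicate 3 (edgeR adjusted p = 0.175) or without WT baseline replicate 1 or 2 (0.114 and 0.109), and the KO call without KO 24 h replicate 3 (0.0922) or KO baseline replicate 1 (0.0551). Fitted on the libraries of the compared groups alone, edgeR also gave adjusted p-values of 0.287, 0.0803 and 0.236 for WT at 24, 40 and 48 h and 0.0911 for KO at 24 h.

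Circadian clock genes also differed between the resting libraries. A clock score was taken per library as the mean log2(CPM + 0.1) of 4 genes of the Arntl arm (Arntl, Npas2, Clock, Cry1) minus that of 10 genes of the opposite phase, led by Dbp. At baseline the scores were −3.18, −3.68 and 0.14 in WT and −3.83, 0.46 and −1.17 in KO, in the library order used above. The baseline libraries with the highest scores, WT replicate 3 and KO replicate 2, were those with the most Cdkn1a. At 4 weeks the score was 0.41 to 2.47 in WT and −1.93 to −0.084 in KO, without overlap, as for Cdkn1a. At 30 h it was −3.23 to −3.22 in WT and −2.53 to −2.18 in KO, at 24 h 1.06 to 2.55 over both genotypes, and at 7 days −3.95 to −2.85. The part of the clock genes in the Cdkn1a differences was not tested.

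**Figure D2:**
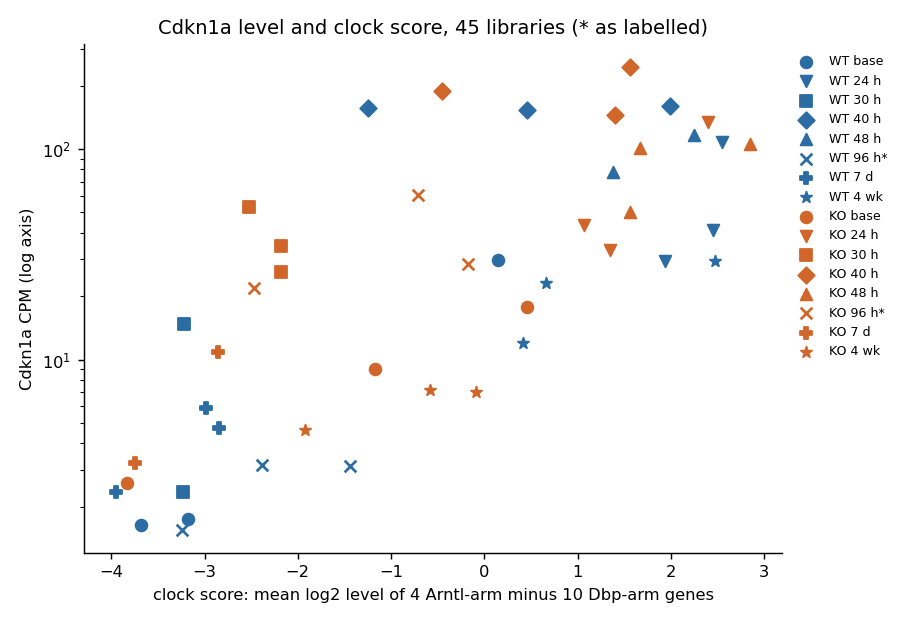
Cdkn1a level (CPM, log axis) against the clock score (difference of mean log2 levels, Arntl arm minus Dbp arm) for the 45 libraries, coloured by genotype and shaped by condition. The 30 h KO libraries (26 to 52.9 CPM) lie above the other libraries of similar score, and the 40 h libraries (145 to 245 CPM) are high at every score they have.

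The RefSeq promoter table (GRCm38.p6) lists 2 start sites for Cdkn1a, and 120 bases before the upstream one are shown because they hold a pair of CATG cores, 6 bases apart, of the kind p53 binds. The stretch lies at chr17:29090859-29090978 on the plus strand, and capitals mark both cores with the bases between them.
Cdkn1a: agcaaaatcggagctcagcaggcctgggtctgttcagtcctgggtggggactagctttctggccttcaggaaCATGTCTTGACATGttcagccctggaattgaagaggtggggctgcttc
The match begins 48 bases before the start site. Its pattern, CATG cores with any 6 bases between, was searched for after the sequence had been seen. The pattern reads the same on both strands, though the 6 bases between the cores here do not. It occurs in 0.712% of 32851 promoter windows of 300 bases. None of the other 9 windows of the 7 inhibitors holds it, which says nothing of p53 binding elsewhere.

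Genes of the p53 pathway were a mixed group at the time of highest Cdkn1a. Of 28 listed genes, 15 rose and 6 fell at 40 h in WT against baseline by edgeR, where 36.5% of all genes were called (19.2% higher, 17.3% lower), with a median log2 change of 0.602 against −0.0029 over all genes tested. Psrc1, a microtubule regulator, rose by 7.41 ± 0.71, Eda2r, a member of the TNF receptor family, by 5.45 ± 0.59, and Gtse1, a G2 and S phase protein that restrains p53, by 5.31 ± 0.35. Psrc1 and Gtse1 are also genes of dividing cells.

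Cdkn1b (ENSMUSG00000003031; chromosome 6, 134920401 to 134925513, plus strand), the p27 gene, took the opposite first step. At baseline its libraries held 25.4, 21.2 and 17.4 CPM in WT and 19.1, 25.2 and 21.7 CPM in KO. At 24 h they held 16, 14.3 and 12.9 CPM in WT and 13.6, 14.7 and 11.4 CPM in KO. No 24 h library of either genotype reached the lowest baseline library of that genotype. Over all genes tested, 37.3% in WT and 40% in KO did not overlap between these groups (either direction). edgeR called the fall in WT (log2 −0.57 ± 0.14, adjusted p = 0.00296) and in KO (−0.73 ± 0.14, 0.000184).

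Cdkn1b then went above its resting level. At 40 h the libraries held 29.9, 29.6 and 29 CPM in WT and 26.8, 24 and 37.5 CPM in KO, and at 48 h 35.7 and 28.3 CPM in WT and 32.4, 30.6 and 32.3 CPM in KO. All but 1 of these libraries, KO at 40 h with 24 CPM, lay above the baseline libraries of their genotype. Of all genes, 46.8% at 40 h and 50.6% at 48 h did not overlap baseline in WT, and 48.4% and 49% in KO. The rises of 0.47 ± 0.14 and 0.42 ± 0.14 at 40 h and of 0.59 ± 0.15 and 0.53 ± 0.14 at 48 h (WT and KO) were called by edgeR and were the smallest called rises of the family at these times. From 96 h on all libraries lay between 16.6 and 24.4 CPM, and edgeR called no change from baseline. The whole span of the group means, from 13.2 ± 1.66 CPM in KO at 24 h to 32.0 ± 5.29 CPM in WT at 48 h, was 2.42-fold, against 44.5-fold for Cdkn1a over the 14 groups other than 96 h. The call in WT at 40 h was lost without WT baseline replicate 3 (edgeR adjusted p = 0.0748), that in WT at 48 h without WT 48 h replicate 2 (0.138), and that in KO at 40 h without KO 40 h replicate 3 (change 0.21, 0.266) or KO baseline replicate 1 (0.0985). On the compared groups alone, edgeR gave 0.0567 for WT at 48 h and 0.0921 for KO at 40 h.

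The p27 protein is removed mainly by the ubiquitin ligase of Skp2, with Cks1b as its helper. Of 11 genes of p27 turnover and control tested, 3 rose and 2 fell at 40 h in WT, a share near that over all genes (19.2% higher, 17.3% lower). Skp2 rose by 2.54 ± 0.27, Cks1b by 1.80 ± 0.33 and Cks2 by 1.34 ± 0.19. The median of the 11 was 0.0685 on the log2 scale. Protein levels were not measured, so these values concern mRNA alone.

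Cdkn2c (ENSMUSG00000028551; chromosome 4, 109660876 to 109667189, minus strand), the p18 gene, began to rise at 30 h. At baseline its libraries held 4.16, 4.51 and 2.67 CPM in WT and 2.81, 4.2 and 3.5 CPM in KO, and at 24 h 4.02, 3.24 and 1.95 CPM in WT and 3.61, 2.45 and 2.22 CPM in KO. At 30 h they held 8.45 and 7.03 CPM in WT and 12.6, 14.8 and 16.5 CPM in KO. The 3 KO libraries lay above both WT libraries, and all 5 lay above every baseline library. Over all genes, 27.6% did not overlap between the genotypes at 30 h. Between 30 h and baseline 42% did not overlap in WT and 47% in KO.

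The Cdkn2c level was highest at 40 and 48 h. WT held 54.5, 36.4 and 45 CPM at 40 h and 55.7 and 39.7 CPM at 48 h, and KO 32.4, 36.9 and 45.3 CPM at 40 h and 41.1, 51 and 41.3 CPM at 48 h. The libraries of these 4 groups overlapped. At 7 days a raised level persisted, with 10.7, 9.24 and 10.6 CPM in WT and 9.43 and 9.3 CPM in KO, and by 4 weeks the libraries held 4.7, 5.15 and 4.88 CPM in WT and 4.79, 4.17 and 3.81 CPM in KO. All 7 day libraries were above every baseline library, and those of 4 weeks overlapped the baseline range in KO but not in WT. Of all genes, 19.5% in WT and 41.7% in KO did not overlap baseline at 7 days, and 19.8% in WT at 4 weeks.

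Relative to baseline, edgeR called Cdkn2c higher at 30 h (log2 1.02 ± 0.24 in WT and 2.05 ± 0.21 in KO), 40 h (3.58 ± 0.21 and 3.44 ± 0.21), 48 h (3.65 ± 0.22 and 3.66 ± 0.21) and 7 days (1.42 ± 0.21, adjusted p = 0.000208, and 1.41 ± 0.23, 0.000468). No call was made at 24 h or 4 weeks. It was the one inhibitor called at 7 days in both genotypes. With limma on log2(FPKM + 0.1) in place of counts, the WT change at 30 h was 0.61 and was not called (adjusted p = 0.153).

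Cdkn2d (ENSMUSG00000096472; chromosome 9, 21288410 to 21291407, minus strand), the p19 gene of the Ink4 family, fell first and rose later. At baseline its libraries held 3.94, 3.93 and 1.99 CPM in WT and 2.39, 2.78 and 2.37 CPM in KO, and at 24 h 1.55, 2.08 and 1.25 CPM in WT and 1.55, 1.47 and 1.71 CPM in KO. edgeR called the fall in WT (−1.03 ± 0.26, adjusted p = 0.00347), where 1 library overlapped the baseline range, and on these 2 groups alone it gave 0.0524. In KO the change was −0.67 ± 0.26 (edgeR adjusted p = 0.0604). At 40 h the libraries held 17.1, 14 and 15.8 CPM in WT and 12.3, 12.6 and 16.6 CPM in KO, and at 48 h 16.4 and 15.7 CPM in WT and 15.5, 17.5 and 19.3 CPM in KO. All of these were above every library of the earlier times. Over all genes, 46.8% and 50.6% did not overlap WT baseline at 40 and 48 h, and 48.4% and 49% did not overlap KO baseline. The rises were 2.25 ± 0.23 and 2.46 ± 0.24 at 40 h and 2.28 ± 0.25 and 2.79 ± 0.24 at 48 h (WT and KO), all called by edgeR. At 7 days and 4 weeks the libraries lay between 2.17 and 3.97 CPM, and edgeR called no change from baseline.

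Cdkn3 (ENSMUSG00000037628; chromosome 14, 46760541 to 46771669, plus strand) went from near absence to a high level, with its highest group means at 48 h. At baseline it had 0 to 4 counts per library, a sum of 6 counts in WT and 4 in KO, so the size of its changes depends on very few baseline reads. At 30 h its libraries held 0.241 and 0.545 CPM in WT and 0.469, 0.527 and 0.94 CPM in KO. At 40 h they held 5.71, 8.61 and 5.97 CPM in WT and 5.56, 3.8 and 12.3 CPM in KO, and at 48 h 30 and 10.2 CPM in WT and 20.8, 40.2 and 35.9 CPM in KO. Within each genotype every 48 h library lay above every 40 h library, in WT with 10.2 against 8.61 CPM for the nearest pair. This difference was not tested, and the share of all genes without overlap between 40 and 48 h was not taken. The libraries of Cdkn2c at 40 and 48 h overlapped, and whether Cdkn3 peaked later than Cdkn2c was not tested.

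The log2 changes of Cdkn3 from baseline by edgeR were 5.46 ± 0.68 and 6.36 ± 0.72 at 40 h and 7.03 ± 0.68 and 8.52 ± 0.69 at 48 h (WT and KO). At 30 h the KO change was called (2.88 ± 0.96, adjusted p = 0.0199, from 34 counts against 4) and the WT change was not (1.44 ± 1.09, 0.407). The KO call at 30 h was lost without KO 30 h replicate 3 (edgeR adjusted p = 0.0841) and without KO baseline replicate 2 or 3 (0.06 and 0.082). At 7 days the libraries held 1.47, 2 and 1.6 CPM in WT and 0.72 and 0.866 CPM in KO. All WT values exceeded the KO values (18.3% of all genes did not overlap there), and edgeR called the change from baseline in WT (3.47 ± 0.78, adjusted p = 0.00908) but not in KO (3.18 ± 1.02, 0.0586). The difference between these changes was −0.29 ± 1.92 (edgeR adjusted p = 0.988), with an SE that is rough because baseline counts were few. The WT call was lost without WT baseline replicate 3 (0.0778) or WT 7 day replicate 2 (0.0555), and in KO the change was called by DESeq2 (3.30, adjusted p = 0.0139) and by edgeR on the 2 groups alone (0.0368) or without the 96 h libraries (0.0334).

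**Figure D3:**
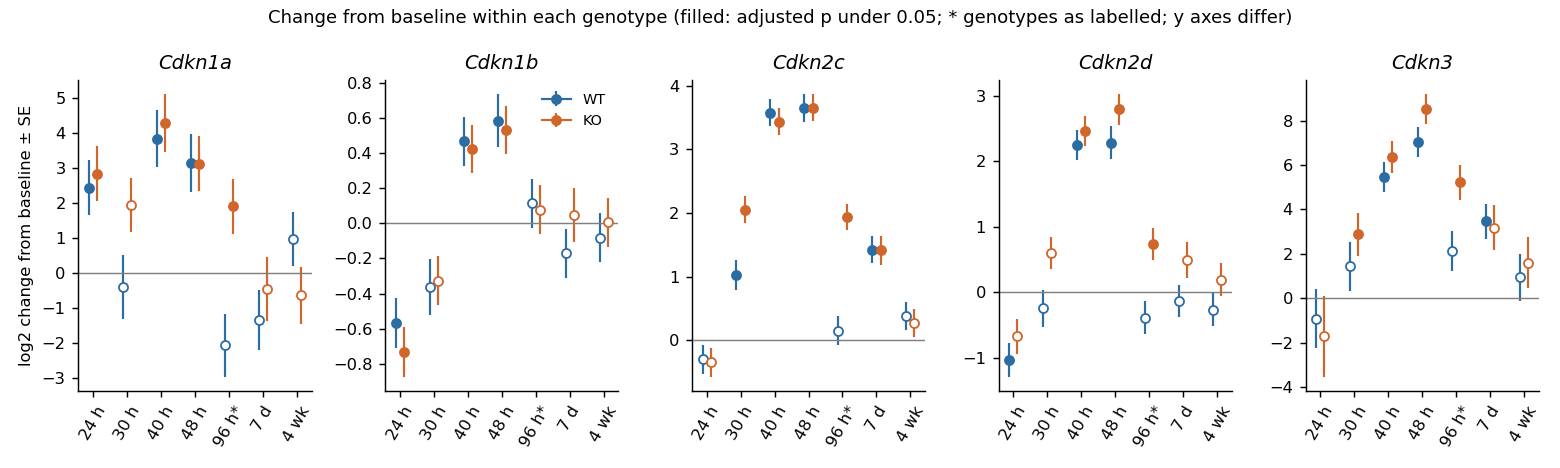
Change of each tested inhibitor from baseline (log2, point ± SE) at 7 times in WT and KO; filled points had an edgeR adjusted p under 0.05, and the vertical axes differ between genes. At 40 and 48 h all 5 genes are filled in both genotypes, and at 24 h Cdkn1b lies below 0 in both.

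The promoter stretches of Cdkn2c, Cdkn2d and Cdkn3, the 3 inhibitors whose group means were most alike over the time course, are shown to compare what they hold. The RefSeq table (GRCm38.p6) matched all 7 inhibitors, with 10 windows of 250 bases before to 50 after a start. Searched on both strands were TTTGAA (the cell cycle homology region of late cycle genes), CCAAT (bound by NF-Y), TTTGGCGC and TTTCCCGC (forms of the E2F site) and CACGTG (the E-box), none of which overlaps another here, and capitals mark matches. The stretches lie at chr4:109666757-109666876 on the minus strand, chr9:21291210-21291329 on the minus strand and chr14:46760421-46760540 on the plus strand.
Cdkn2c: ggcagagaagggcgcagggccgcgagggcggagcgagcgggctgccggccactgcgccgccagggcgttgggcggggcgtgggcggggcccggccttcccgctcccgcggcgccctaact
Cdkn2d: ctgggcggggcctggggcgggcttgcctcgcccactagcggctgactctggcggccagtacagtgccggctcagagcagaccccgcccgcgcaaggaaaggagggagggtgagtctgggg
Cdkn3: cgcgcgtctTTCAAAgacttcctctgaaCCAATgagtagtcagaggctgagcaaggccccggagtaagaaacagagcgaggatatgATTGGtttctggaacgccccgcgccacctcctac
The window of Cdkn3 alone among the 3 holds TTTGAA, on the other strand and beginning 111 bases before the start, and 4 copies of CCAAT. Of the 32851 windows, 17.9% hold TTTGAA and 37.4% hold CCAAT, while 0.514% and 1.07% hold the first and the other E2F form and 7.15% the E-box. Cdkn2d has 1 CCAAT, beginning 220 bases before the start and so outside the stretch, and the first window of Cdkn2c has none of the 5 motifs. The second window of Cdkn2c, at a start further into the gene, has 1 CCAAT and 1 CACGTG, beginning 7 and 34 bases after the start, and 8 CG pairs. Cdkn2c has 33 CG pairs in its first window, Cdkn3 25 and Cdkn2d 22, against a median of 7 over all windows. In Cdkn1b, the gene with the smallest changes, the window holds 3 copies of CCAAT and 30 CG pairs.

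The genes whose group means over the 14 groups other than 96 h most resembled each inhibitor also differed. Likeness is Pearson's r of mean log2 CPM among 10249 candidate genes (10250 for Cdkn3), given as a description, since groups share libraries with the tests above. Cdkn2c was most like Racgap1 (r = 0.988), Ckap2 (0.988) and Cdca3 (0.987), Cdkn2d most like Nusap1 (0.987), Fam122b (0.982) and H2afz (0.981), and Cdkn3 most like Ccnb2 (0.988), Knstrn (0.984) and Cenpa (0.982). Racgap1, Nusap1, Ccnb2, Knstrn and Cenpa are genes of mitosis and cell separation. Cdkn1b was most like H2afv (0.949), Sypl (0.947) and Cyp39a1 (0.941), and Cdkn1a most like Desi2 (0.97), Insc (0.957) and Picalm (0.948). Between the inhibitors, r was 0.949 to 0.964 among Cdkn2c, Cdkn2d and Cdkn3, 0.805 to 0.912 between Cdkn1b and these 3, 0.566 to 0.634 between Cdkn1a and these 3, and 0.371 between Cdkn1a and Cdkn1b.

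Cdkn2a and Cdkn2b lie side by side on chromosome 4 (ENSMUSG00000044303, 89274471 to 89294653, and ENSMUSG00000073802, 89306299 to 89311039, both on the minus strand). Cdkn2a gives rise to p16 and, through another first exon and reading frame, to the p53 activator Arf, which counts per gene do not separate. Over all 45 libraries Cdkn2a had 51 counts, 0 to 6 per library, and Cdkn2b 113 counts, 0 to 10 per library. A count of 0 allows a level of up to 3 counts, which is 0.13 to 0.233 CPM in these libraries and covers counting error only.

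Neither gene was detectable at a level that could be compared between the genotypes. At baseline Cdkn2a had no count in any of the 6 libraries, which allows up to 0.071 CPM (of total counts) over the 3 WT and 0.0636 CPM over the 3 KO libraries. Without 96 h it had 19 counts in 19 WT libraries and 16 counts in 20 KO libraries, with at least 1 count in 12 and 8 of them. For Cdkn2b the sums were 42 and 55 counts, with counts in 17 of 19 WT and 19 of 20 KO libraries. The group with most Cdkn2b counts was KO at 48 h, whose libraries had 10, 7 and 0. The libraries labelled KO at 96 h held 3, 3 and 6 counts of Cdkn2a, all at or above 3, and those labelled WT 2, 2 and 0. When all genes were fitted without the filter, edgeR called Cdkn2a against baseline in KO at 40 h (adjusted p = 0.0392, 8 counts against 0, with 23.7% of 19966 genes called) and in the libraries labelled KO at 96 h (0.00508, 12 counts against 0, with 29.5% called). In WT the same fit gave adjusted p-values of 0.126 at 40 h (5 counts against 0) and 0.0684 at 48 h (6 counts in 2 libraries against 0), and KO against WT it called no difference in Cdkn2a at any condition. DESeq2 gave no adjusted p for these changes from baseline.

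**Figure D4:**
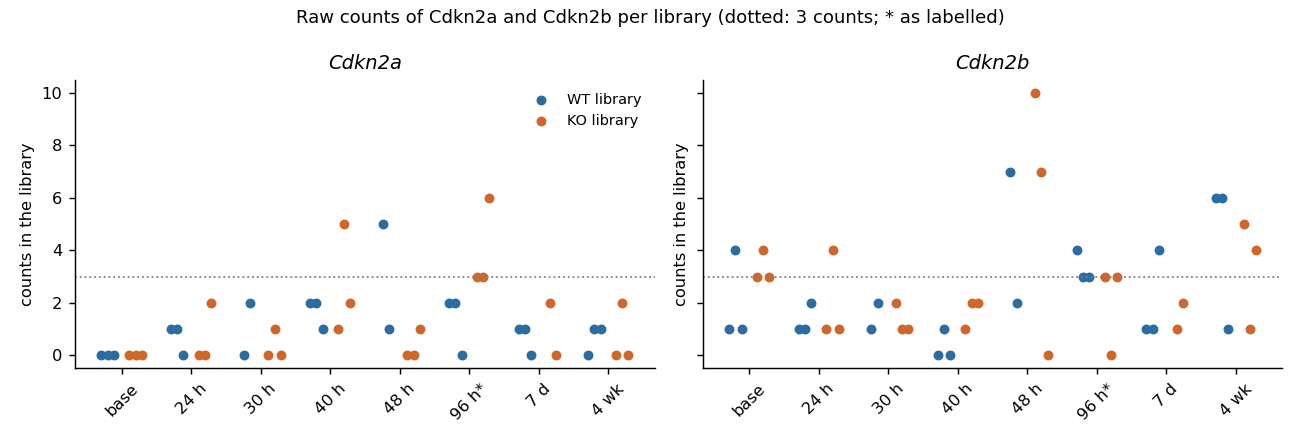
Raw counts of Cdkn2a and Cdkn2b in each of the 45 libraries by condition and genotype, with the limit of 3 counts dotted. Cdkn2a has no count at baseline, and no library has more than 6 counts of Cdkn2a or 10 of Cdkn2b.

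Among 22 listed genes that govern the Ink4 locus, 8 rose and 4 fell at 40 h in WT against baseline by edgeR, against 19.2% higher and 17.3% lower over all genes, with a median log2 change of 0.197. Ezh2, the methyltransferase of Polycomb complex 2, rose by 3.14 ± 0.20, Klf6, a zinc finger factor, rose by 2.43 ± 0.36, and Cbx7, a reader of the Polycomb mark that represses Ink4a in other cells, fell by 1.64 ± 0.27.

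The partners of the inhibitors were called at the same time. Over all genes 36.5% were called at 40 h in WT (19.2% higher, 17.3% lower). At 40 h in WT, 10 of 12 cyclins and kinases rose and none fell, with Ccnb1 up by 7.64 ± 0.72, Ccnb2 by 6.93 ± 0.62 and Cdk1, the mitotic kinase, by 6.66 ± 0.46. Of 11 pocket proteins and E2F factors, 6 rose, led by E2f7, an atypical repressor (4.57 ± 0.54), Rbl1, which encodes p107 (4.45 ± 0.29), and E2f2 (3.61 ± 0.47). Of 8 enzymes that activate or inhibit CDKs, 5 rose, led by the phosphatase gene Cdc25c (9.47 ± 1.10), the inhibitory kinase gene Pkmyt1 (5.70 ± 0.43) and Cdc25b (2.99 ± 0.38). All 25 mitosis genes rose, with a median of 7.07, among them Ska1 (9.85 ± 0.77), Aurkb (8.35 ± 0.47) and Prc1 (7.78 ± 0.45). In the same comparison 3 of 9 hepatocyte markers fell, 1 of 10 Kupffer cell, 3 of 7 monocyte and neutrophil, 2 of 10 endothelial, 3 of 10 stellate cell and 2 of 5 cholangiocyte markers rose, and 1 of 7 lymphocyte and 1 of 3 erythroid markers fell. Counts such as 2 of 10 endothelial markers lie near the shares over all genes. The part of the markers in the changes of the inhibitors was not tested. In whole liver, more RNA of a gene per cell and more cells of a type that expresses it cannot be told apart.

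Between genotypes, the inhibitors differed at 30 h for 1 gene. KO against WT, edgeR called 1 of the 5 at 30 h, Cdkn2c, with 0.937% of all genes called (0.873% higher), and 0 of 5 at baseline (0.0852%), 24 h (0.0426%), 40 h (0.142%), 48 h (0.135%), 7 days (0.135%) and 4 weeks (0.22%). DESeq2 called none of the 5 at these 6 conditions either, and by edgeR 1 of the 5, Cdkn1a at 4 weeks, had an unadjusted p under 0.05. The median difference of the 5 was 0.632 on the log2 scale at 30 h, against 0.0085 over all genes tested, and between −0.162 and 0.24 at the other 6 conditions.

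Cdkn2c at 30 h exceeded WT in the KO libraries by 0.92 ± 0.22 on the log2 scale (edgeR adjusted p = 0.0314), from 14.6 ± 1.97 CPM in 3 KO and 7.74 ± 1.01 CPM in 2 WT libraries. The call was not stable: leaving out WT replicate 2 or 3 or KO replicate 2 or 3 of 30 h gave edgeR adjusted p-values of 0.106, 0.584, 0.0793 and 0.121, with differences between 0.80 and 1.06. The test on the groups of 30 h alone gave 0.0615, and limma on FPKM 0.108. The rise from baseline to 30 h was larger in KO by 1.03 ± 0.32, which was not called (edgeR adjusted p = 0.347, with 0.0355% of genes called).

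Other cell cycle genes were called in the same direction at 30 h, where 0.937% of all genes were called (0.873% higher). Of 25 mitosis genes, 13 were higher in KO and none lower (median log2 1.82), with Ska1 at 3.32 ± 0.57, Plk1 at 2.51 ± 0.63 and Prc1 at 2.30 ± 0.42. Cdk1 (1.82 ± 0.42) and Ccna2 (1.72 ± 0.41), the S and G2 phase cyclin, were 2 of 12 cyclins and kinases called. E2f7 (2.35 ± 0.59) and E2f1 (1.19 ± 0.30) were 2 of 11 pocket proteins and E2F factors. Eda2r (2.69 ± 0.66), Gtse1 (1.40 ± 0.32) and the apoptosis nuclease gene Aen (0.69 ± 0.16) were 3 of 28 p53 pathway genes, and Ezh2 (1.15 ± 0.21) was 1 of 22 Ink4 control genes. None of 11 p27 turnover genes, 8 CDK enzymes or 14 clock genes was called, nor any marker of the 8 liver and blood cell types. The summed mitosis genes stood at 62.4 to 81.0 CPM in WT and 207 to 300.4 CPM in KO at 30 h, and at 10.8 to 16.6 CPM at baseline over both genotypes.

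Cdkn1a had the largest difference of the family at 30 h, 2.18 ± 0.92 (95% interval 0.30 to 4.06), without overlap of the libraries, as for 27.6% of all genes at 30 h, but did not pass (unadjusted p = 0.0245, edgeR adjusted p = 0.345). At 4 weeks it was lower in KO by −1.77 ± 0.79 (95% interval −3.39 to −0.15), again without overlap, and did not pass (unadjusted p = 0.0332, edgeR adjusted p = 0.987). The clock scores given above also differed without overlap at both times. For Cdkn2d and Cdkn3 at 30 h the libraries overlapped, with differences of 0.45 ± 0.27 and 0.63 ± 0.81.

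At 40 h the intervals were narrow for 3 of the genes. There the KO minus WT difference of Cdkn1b was −0.0015 (95% interval −0.28 to 0.27), that of Cdkn2c −0.24 (−0.61 to 0.12) and that of Cdkn2d −0.18 (−0.60 to 0.25). Cdkn3 (0.097, −0.73 to 0.93) and Cdkn1a (0.30, −1.14 to 1.74) were measured less closely. At 48 h, when Cdkn3 was highest, its difference was 0.68 (−0.21 to 1.58) and was not called. At 7 days Cdkn1b libraries did not overlap, with 21.3, 16.6 and 19.1 CPM in WT and 22.3 and 23.2 CPM in KO, as for 18.3% of all genes, and the difference of 0.26 ± 0.16 was not called (edgeR adjusted p = 0.978).

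Averaged over the 7 conditions other than 96 h, 0 of the 5 inhibitors differed between genotypes, with 2.13% of genes called. The mean differences were 0.19 ± 0.31 for Cdkn1a, 0.054 ± 0.055 for Cdkn1b (95% interval −0.058 to 0.17), −0.0015 ± 0.078 for Cdkn2c (−0.16 to 0.16), 0.039 ± 0.095 for Cdkn2d (−0.15 to 0.23) and −0.32 ± 0.37 for Cdkn3. None had an unadjusted p under 0.05, and DESeq2 called none. A joint edgeR test of whether the change from baseline differs between genotypes at any of 6 times called 0 of 5 inhibitors as well (0.0426% of genes called), and 1 of them, Cdkn2c, had an unadjusted p under 0.05.

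The remaining Cip/Kip gene, Cdkn1c (p57, an imprinted gene), was called lower at 24 h in WT, and by edgeR was not called higher at 40 or 48 h in either genotype. WT libraries held 1.24 ± 0.48 CPM (SD, n = 3) at baseline and 0.37 ± 0.062 CPM at 24 h, a called fall (log2 −1.73 ± 0.39, edgeR adjusted p = 0.00126), and KO libraries held 1.35 ± 0.12 and 0.92 ± 0.20 CPM, which was not called (−0.55 ± 0.34, 0.257). The difference between these changes was 1.18 ± 0.52 and was not called (edgeR adjusted p = 1). Its mean KO minus WT difference over 7 conditions was 0.48 ± 0.14 (edgeR adjusted p = 0.0589).

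**Figure D5:**
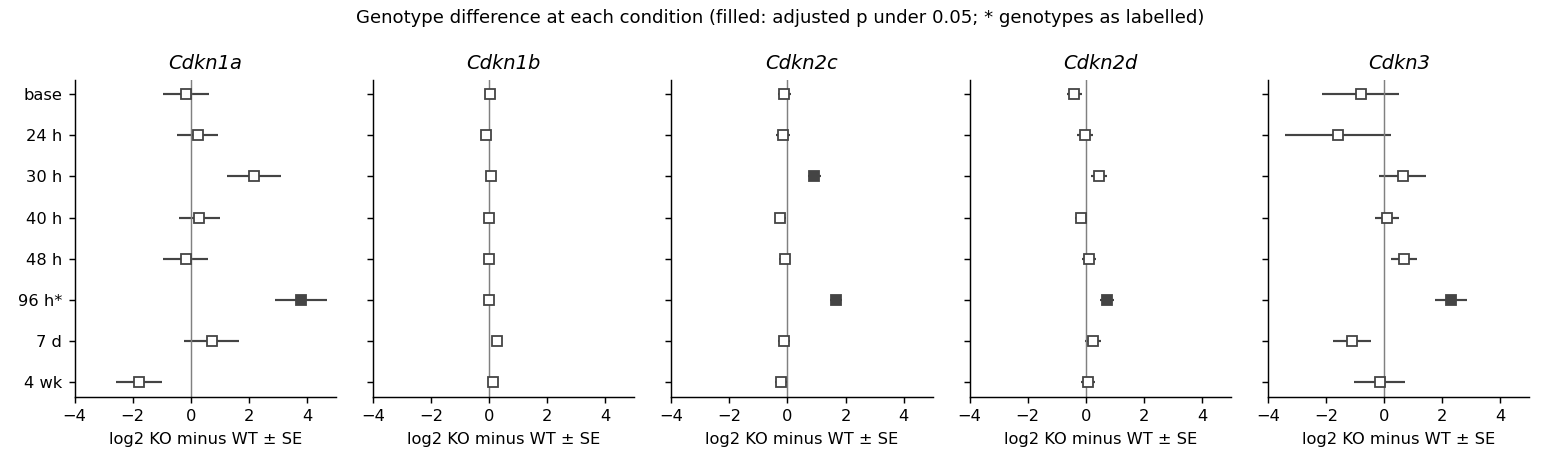
KO minus WT difference of each tested inhibitor (log2, square ± SE) at 8 conditions; filled squares had an edgeR adjusted p under 0.05. Filled squares are Cdkn2c at 30 h and Cdkn1a, Cdkn2c, Cdkn2d and Cdkn3 at 96 h, where the genotypes are as labelled.

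At 96 h, with libraries as labelled, edgeR called 4 of the 5 inhibitors higher in KO, with 14.3% of genes called and 7.22% called higher. Cdkn1a libraries held 3.17, 1.56 and 3.12 CPM (labelled WT) and 60.5, 21.9 and 28.6 CPM (labelled KO), a difference of 3.80 ± 0.89 (adjusted p = 0.00485) without overlap, as for 24% of all genes. Cdkn2c held 4.63, 4.45 and 3.48 against 12.6, 14.6 and 13.2 CPM, a difference of 1.68 ± 0.21 (edgeR adjusted p = 3.32e-06), also without overlap. Cdkn1b was alike in level, with 24.4, 23.9 and 21 against 22.9, 23 and 23.8 CPM and a difference of 0.0083 (95% interval −0.27 to 0.29).

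Cdkn3 at 96 h had 1.52, 0.0742 and 0.284 CPM in libraries labelled WT and 2.16, 3.32 and 4.21 CPM in those labelled KO (2.28 ± 0.55, edgeR adjusted p = 0.00532). For Cdkn2d the libraries overlapped, with 2.13, 3.56 and 1.92 against 4.59, 3.51 and 4.48 CPM (0.73 ± 0.25, edgeR adjusted p = 0.045). The Cdkn2d call was lost without WT replicate 1 or 3 or KO replicate 1 or 3 of 96 h (adjusted p 0.0903 to 0.174), with the replicate number as a block (0.0536), without the filter (0.0602), in limma on FPKM (0.0595) and on the 2 groups alone (0.227). On the 2 groups alone Cdkn3 was lost too (0.141), and its difference was 1.80 to 4.12 when single libraries were left out.

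The change from baseline to 96 h differed between the genotypes as labelled for 1 of 5 inhibitors, Cdkn2c (1.79 ± 0.31, edgeR adjusted p = 0.00211, with 2.91% of genes called). Against baseline, 0 of 5 inhibitors were called in the libraries labelled WT at 96 h (27.4% of genes called), where Cdkn1a and Cdkn3 had unadjusted p-values under 0.05 and were called by DESeq2 (−2.06, adjusted p = 0.034, and 2.16, 0.0303). In those labelled KO, 4 of 5 were called higher (44% of genes called, 21.9% higher): Cdkn1a (1.90 ± 0.77, edgeR adjusted p = 0.046), Cdkn2c (1.94 ± 0.21), Cdkn2d (0.73 ± 0.25) and Cdkn3 (5.22 ± 0.77). The call of Cdkn1a was lost without KO baseline replicate 1 or 3 or KO 96 h replicate 1 (0.174, 0.112 and 0.212), without the filter (0.0657) and on the 2 groups alone (0.0502). That of Cdkn2d was lost without KO baseline replicate 3 or KO 96 h replicate 1 (0.0509 and 0.0532) and in limma on FPKM (0.14).

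Many other genes moved with the inhibitors at 96 h, where 14.3% of all genes were called between the labelled genotypes (7.22% higher). All 25 mitosis genes were called higher in the libraries labelled KO (median log2 2.24), as were 4 of 12 cyclins and kinases, among them Ccna2 (2.58 ± 0.43). Of 28 p53 pathway genes 10 were higher and 1 lower, led by Psrc1 (5.37 ± 0.64), Eda2r (3.44 ± 0.51) and Phlda3 (2.90 ± 0.43), an inhibitor of Akt, and Cdkn1c was higher by 1.23 ± 0.31. Summed hepatocyte markers ran from 207559 to 353384 CPM in libraries labelled KO and from 108795 to 178603 CPM in those labelled WT, with 2 of 9 genes called higher. Kupffer cell markers summed to 472 to 844 against 287 to 398 CPM (1 of 10 called higher), and monocyte and neutrophil markers to 109 to 174 against 54.8 to 63.7 CPM (3 of 7 called higher). Of the other lists, 1 of 3 erythroid markers was lower, and no lymphocyte, endothelial, stellate cell or cholangiocyte marker was called. The clock score was −2.47 to −0.17 against −3.24 to −1.44, with 2 of 10 genes of the Dbp arm called lower, and no 96 h library had more than 3 markers of a list at 0. The part of these in the 96 h differences was not tested, and genotype and labelling cannot be told apart there.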

How the data were processed

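Whole-liver poly(A) RNA of 45 libraries was analysed from 2 tables. The gene counts are whole-number counts as the authors deposited them, and the FPKM values are a second table the authors deposited, used for levels compared between genes and as an alternative. TopHat2 2.1.0, HTSeq, Cufflinks 2.2.1, FastQC 0.11.5, Trimmomatic and DESeq2 are named with build mm10 in the tool list, per the submitters' processing notes. The strand setting of the counting is not given in the sources used here. Groups follow the genotype and time in the labels. Of 19966 genes, filterByExpr of edgeR 4.0.16 (R 4.3.3) kept 14090, with at least 99.944% of each library's counts. Counts with TMM scaling were fitted with 1 mean for each of 16 groups (glmQLFit, robust; 29 residual degrees of freedom), tested by the quasi-likelihood test and adjusted by Benjamini-Hochberg over all genes of a comparison. The fit was tested on simulated data. No 2 libraries of a group agreed within sampling noise.

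Alternatives were DESeq2 1.42.0, other scaling factors, no filter, limma 3.58.1 on log2(FPKM + 0.1), fits without 96 h or on the compared groups alone, a replicate block, and each library left out in turn. The inhibitors, the pathway and marker lists and the tests were chosen with earlier results of these data known. Named were the 7 inhibitors, Uhrf1, Cdkn1c, at most 3 called genes per list with the largest change, and the 3 genes most like each tested inhibitor (mean log2 CPM of at least 1, prior count 2, predicted genes left out). Bglap3 and Rhox5, used to check labels, were named after their values were seen. Of the Ensembl IDs, 103 matched no symbol. Gene positions come from GENCODE (GRCm38). A protein comparison was planned and not made, since no protein sequences were used here.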

Additional observations from a re-analysis of the deposited data

Results flagged for a closer look

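For 1 result a difference between the genotypes' changes was itself called. Cdkn2c differed between the genotypes, as labelled, in its change from baseline to 96 h, which was larger in KO by 1.79 ± 0.31 on the log2 scale (edgeR interaction contrast, adjusted p = 0.00211, with 2.91% of genes called). The changes were 1.94 ± 0.21 in KO and 0.15 ± 0.23 in WT. Leaving out single libraries gave 1.64 to 1.98, with edgeR adjusted p-values from 0.00109 to 0.00724. The labels at 96 h are in doubt, with Bglap3 and Rhox5 high in both labelled groups. The same contrast was not called for Cdkn1a (3.96 ± 1.19, edgeR adjusted p = 0.063), Cdkn2d (1.12 ± 0.35, 0.0716) or Cdkn3 (3.09 ± 1.52, 0.266), and the first 2 were called by DESeq2 (0.012 and 0.0388).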

How the results depend on the processing

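KO against WT, 5 calls of inhibitors were made over 8 conditions. There were 3 with limma on FPKM, 2 on the compared groups alone, 1 without the 96 h libraries (1 condition fewer) and 3 to 5 when single libraries were left out, the fewest without WT 30 h replicate 2. DESeq2 and the other scaling factors also gave 5, and no filter 4. Against baseline, WT had 16 calls (11 to 18 over the alternatives) and KO 19 (16 to 22, which includes Cdkn2a at 40 and 96 h without the filter). The mean over 7 conditions and the joint test gave 0 in each alternative run for them. Cdkn1a in the libraries labelled WT at 96 h against baseline went from −2.06 to 0.63 without WT baseline replicate 3 (edgeR adjusted p = 0.71). Its change ranged from −2.57 to 0.63 over the libraries left out, and no other result checked changed sign. Of the comparisons, only those with an unadjusted edgeR p under 0.05 were checked in this way. With the replicate number as a block the calls were 4, 16 and 19, and the only call lost was Cdkn2d at 96 h. Same-numbered libraries did not deviate together throughout (r from −0.292 to 0.29 over the pairs). Between WT at 40 h and WT baseline, whose columns share a tag, all same-numbered pairs were positive (r from 0.0889 to 0.157). All other pairs of these groups were negative (−0.112 to −0.00736), which is not a separate observation. Deviations from a group mean cancel within the group, so positive same-numbered pairs make the others negative on balance. In KO the same-numbered pairs of 40 h and baseline ran from −0.0567 to 0.154. Whether such libraries share mice is not known, and the main fit did not pair them. The closest genes to Cdkn1a shared 1 of 3 when all 16 groups were used. Depth limits Cdkn2a, Cdkn2b and baseline Cdkn3, which had a few counts per library.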
